A study of Mus musculus with 38 samples.

Results

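Transcripts of 9 genes that mark mouse mast cells were followed through every library of a study of the splicing factor SRSF2 in skin. They were Mcpt4, Cma1, Tpsb2, Tpsab1, Cpa3, Mrgprb1, Mrgprb2, Ms4a2 and Fcer1a, taken by gene symbol as known mast cell genes, and all 9 were found among the 49585 genes listed for each of 38 libraries. In whole back skin, mice were Cre negative (controls) or Cre positive for Krt14CreER, a recombinase driven by a promoter of basal keratinocytes and not of mast cells, and all of them, controls included, received topical 4-hydroxy tamoxifen every other day. The knockout set, whose mice are all labelled for the SRSF2 KO allele, held 3 controls treated for 12, 12 and 10 days and 3 SRSF2-KO mice each at 4, 10 and 12 days, with wild type, heterozygous or homozygous tdTomato reporter alleles mixed within groups. The P95H set, whose mice are all labelled SRSF2 MUT and tdTomato wild type, held 5 controls and 2 SRSF2-P95H mice at 12 days, and 3 controls and 4 SRSF2-P95H mice at 28 days. Reporter positive cells sorted from back skin came from 3 control and 3 SRSF2-KO mice after 10 days of 4-hydroxy tamoxifen. A second sorted set came from 3 control and 3 SRSF2-P95H-het mice after 3x tamoxifen injection and DMBA/TPA, a carcinogen followed by a tumour promoter, at 20 weeks. No source used here gives the Cre status of the sorted controls or the ages of the mice. The libraries are labelled as biological replicates, and each title carries its own mouse number.

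Mast cells are tissue-resident immune cells of the dermis. Their granules hold proteases, histamine and heparin, which are released when IgE bound to the high-affinity IgE receptor is cross-linked by antigen, or when peptides and some drugs act on the receptor MRGPRB2. Skin mast cells of the mouse are of the connective tissue type, which is known for chymase, tryptase and carboxypeptidase A3.

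Estimated depth in whole skin was 25.0 to 36.8 M reads (M, 1e+06 reads) per library in the knockout set and 7.39 to 32.3 M in the P95H set (the lowest, P95H replicate 1 at 28 days, is uncertain), and sorted libraries held 45.9 to 92.8 M and 11.0 to 17.2 M reads. The values given below are normalised counts. In whole skin they are whole-number steps, with 1 step the value of an undetected gene, and in sorted cells they are the deposited values. Differences are on the log2(value + 1) scale, tested with limma over all genes with a mean of at least 10 and adjusted by the Benjamini-Hochberg method, and a gene is called to rise or fall at an adjusted p under 0.05. Of the 9 genes, 8 passed that mean in the knockout set, 7 in the P95H set, 1 in the sorted knockout set and 0 in the sorted DMBA/TPA set. Srsf2 itself was at 2879 to 2996 steps in control skin of the knockout set, at 2450 to 2790 after 4 days, at 2996 to 3687 after 10 days and at 2303 to 2559 after 12 days. In sorted cells it was at 17560 to 20595 in controls and at 1900 to 3658 in knockouts.

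In control skin the 9 genes spanned a wide range of levels. Per kilobase of exon, Mcpt4, a granule chymase, was at 480 ± 121 steps (SD, n = 3) in the knockout set. Cma1, the other chymase of this cell type, followed at 312 ± 50.1, the tryptase Tpsb2 at 234 ± 51.1 and the carboxypeptidase Cpa3 at 153 ± 21.9. The ranges of neighbours in this order overlapped among these 4 protease genes. Mrgprb2 was lower, at 76.4 ± 21.8 steps per kilobase, and its paralog Mrgprb1, a receptor of the same family, was at 23.1 ± 3.67. Neither range touched the next gene in the order. At the bottom stood Ms4a2, the beta chain of the IgE receptor, at 7.70 ± 2.37, Fcer1a, its IgE-binding alpha chain, at 5.68 ± 3.79, and a further tryptase, Tpsab1, at 3.98 ± 2.45, with overlapping ranges. In controls of the P95H set at 12 days Mcpt4 was again first, at 186 ± 40.3 steps per kilobase (SD, n = 5), and Cma1, Cpa3 and Tpsb2 lay between 95.6 and 109. The 2 sets were prepared with different library kits and normalised separately, so levels were not compared between them.

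The positions below are those of GENCODE M21 (GRCm38). The build behind the counts is not stated in any source used here, and all 9 identifiers matched this annotation without their version. Mcpt4 (chromosome 14, 56059629 to 56062313) and Cma1 (chromosome 14, 55941451 to 55944675) lie in one chymase cluster on the minus strand. Tpsab1 (chromosome 17, 25343245 to 25345562, minus strand) and Tpsb2 (chromosome 17, 25366305 to 25369098, plus strand) are neighbours in the tryptase cluster. Mrgprb1 (48444113 to 48456342) and Mrgprb2 (48550965 to 48558086) lie on the minus strand of chromosome 7. Cpa3 (chromosome 3, 20215620 to 20242181), Ms4a2 (chromosome 19, 11615523 to 11623719) and Fcer1a (chromosome 1, 173221284 to 173227214) lie on other chromosomes, all on the minus strand, and Cpa3 overlaps the microRNA gene Mir7007 on the same strand. Of the stretches of 50 bases in their transcripts, 5.38% of Cma1, 5.48% of Mcpt4 and 2.10% of Ms4a2 also occur in transcripts of another gene, and 0% in the other 6 genes, so most reads of each gene can be told from its relatives.

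RefSeq (GRCm38.p6) gave a promoter for 7 of the 9 genes. The 250 bases before the start were searched for GATA motifs (GATA preceded by A or T and followed by A or G, on either strand), the letters bound by factors such as GATA2, which is needed for mast cell identity. All 7 held at least 1 such motif, beside 26.5% of 32851 promoter windows of the same length. An E-box of the kind bound by MITF, another factor of mast cells (CATGTG or CACGTG, either strand), was found in Fcer1a and in none of the other 6, beside 17.6% of the windows. A match of letters is a description of the window and not a measurement of binding. The 5 windows shown are those of the genes on which the comparisons below turn, Mcpt4, Cma1 and Cpa3, which rose in P95H skin at 12 days, and the paralogs Mrgprb1 and Mrgprb2, of which Mrgprb2 fell. Each runs 5′ to 3′ on the strand of the gene, with GATA motifs in capitals.
Mcpt4, chr14:56062311-56062560, minus strand: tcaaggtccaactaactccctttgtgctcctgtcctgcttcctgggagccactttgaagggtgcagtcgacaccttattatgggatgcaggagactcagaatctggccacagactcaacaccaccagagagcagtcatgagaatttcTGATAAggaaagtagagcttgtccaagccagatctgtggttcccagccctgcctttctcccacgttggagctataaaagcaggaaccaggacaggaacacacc
Cma1, chr14:55944676-55944925, minus strand: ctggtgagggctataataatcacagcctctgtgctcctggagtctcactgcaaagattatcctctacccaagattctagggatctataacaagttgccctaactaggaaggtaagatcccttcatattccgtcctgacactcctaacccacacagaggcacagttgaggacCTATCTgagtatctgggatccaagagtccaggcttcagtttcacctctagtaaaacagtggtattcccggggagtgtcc
Cpa3, chr3:20242182-20242431, minus strand: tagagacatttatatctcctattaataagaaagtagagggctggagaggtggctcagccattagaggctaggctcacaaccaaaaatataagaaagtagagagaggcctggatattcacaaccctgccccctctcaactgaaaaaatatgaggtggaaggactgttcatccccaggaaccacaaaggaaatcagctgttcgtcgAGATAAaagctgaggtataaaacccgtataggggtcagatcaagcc
Mrgprb1, chr7:48456343-48456592, minus strand: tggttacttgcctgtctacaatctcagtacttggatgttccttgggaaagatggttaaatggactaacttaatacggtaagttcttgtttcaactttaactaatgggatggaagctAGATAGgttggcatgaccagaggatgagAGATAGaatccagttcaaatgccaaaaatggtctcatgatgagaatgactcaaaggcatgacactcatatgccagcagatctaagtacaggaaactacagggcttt
Mrgprb2, chr7:48558087-48558336, minus strand: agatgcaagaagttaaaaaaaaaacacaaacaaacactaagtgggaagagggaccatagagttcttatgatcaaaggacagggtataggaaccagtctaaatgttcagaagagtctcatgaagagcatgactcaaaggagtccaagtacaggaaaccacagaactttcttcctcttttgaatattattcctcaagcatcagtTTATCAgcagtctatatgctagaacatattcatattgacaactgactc

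After Srsf2 deletion, the comparison with control skin asks whether mast cell transcripts changed in a tissue where the recombinase acts in keratinocytes. After 10 days 1 of the 8 genes tested, Mrgprb2, fell and none rose. Among all genes tested, 25.3% were called in this comparison and 11.9% were called lower. The 8 genes had a median log2 difference of -0.72, beside -0.02 over all 19450 genes. Whole skin is a mixture, so fewer cells of a type and less RNA per cell cannot be told apart in it.

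Mrgprb2 read 207, 152 and 117 steps in the controls and 74, 22 and 38 in knockout skin at 10 days. All 3 knockout libraries lay below all 3 controls, and 8382 of all 19450 genes likewise showed no overlap between these groups. The log2 difference was -1.93 ± 0.45 (SE), or 3.82-fold lower, with an adjusted p of 0.0136 (limma). Without control replicate 2 the adjusted p was 0.0514 and the difference -1.95.

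**Figure D1:**
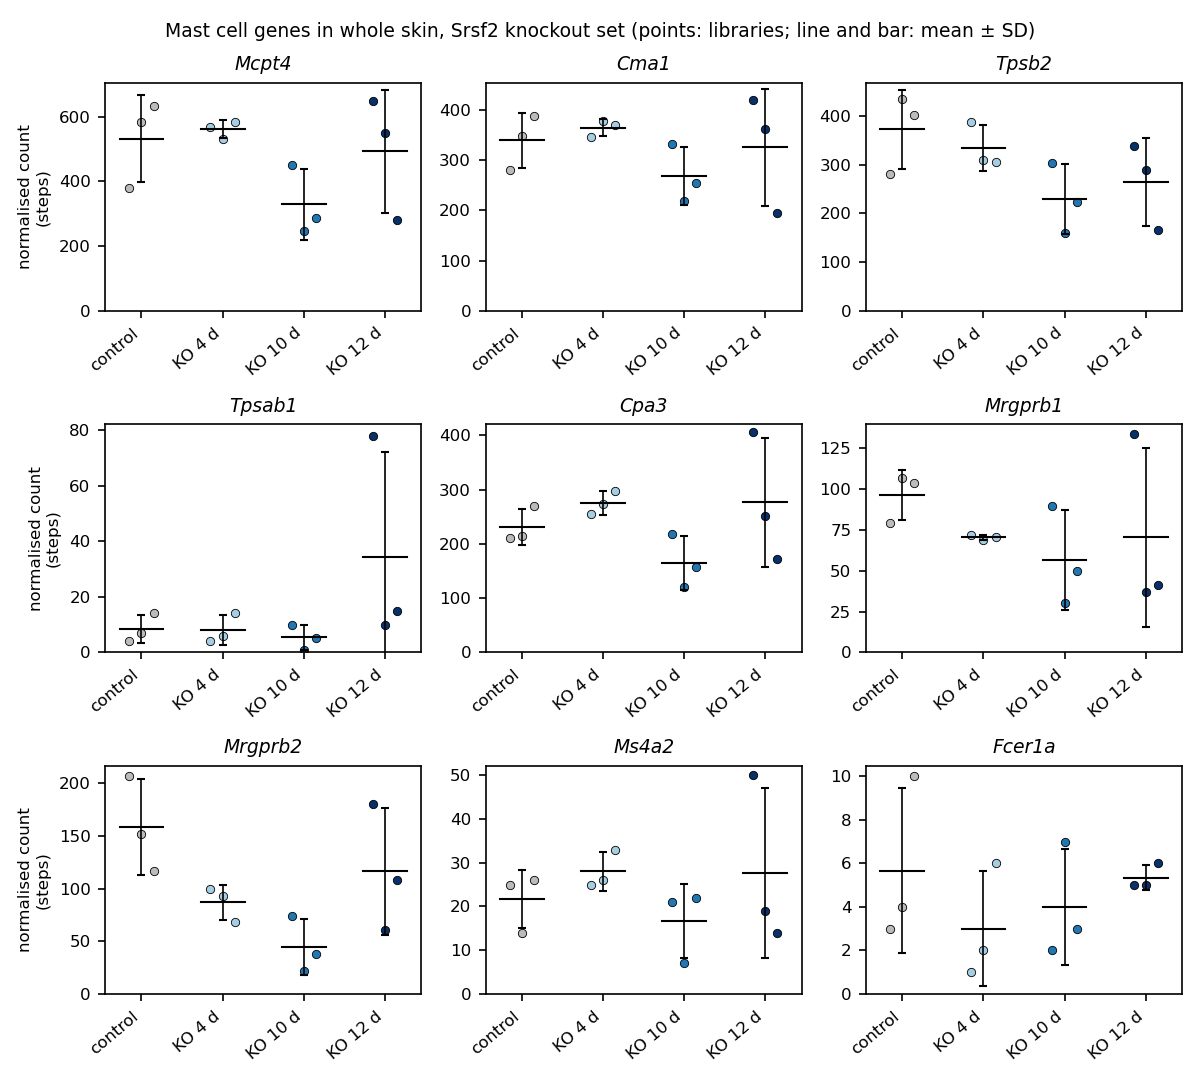
Normalised counts in steps (linear axes from 0) of the 9 mast cell genes in whole skin of the knockout set, with 1 point per library and the mean ± SD of each group (n = 3). Mrgprb2 at 10 days lies between 22 and 74, below the controls at 117 to 207, and replicate 1 at 12 days is the highest library of Mcpt4, Cma1, Cpa3, Mrgprb1, Ms4a2 and Tpsab1.

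The granule proteases were lower on average at 10 days, but none passed the test. Mcpt4 read 380, 582 and 633 steps in controls and 452, 247 and 287 in knockouts, with 1 knockout library inside the control range (log2 difference -0.71, limma adjusted p = 0.119). Tpsb2 read 281, 436 and 402 in controls and 304, 160 and 223 in knockouts (-0.72, limma adjusted p = 0.0917). Here too replicate 1 overlapped the controls. Cpa3, which trims peptides in the granule, read 211, 214 and 270 in controls and 218, 120 and 157 in knockouts (-0.52, limma adjusted p = 0.204). Cma1 read 281, 349 and 389 in controls and 332, 219 and 255 in knockouts (-0.35, limma adjusted p = 0.35). In each of these 4 genes knockout replicate 2 was the lowest library and replicate 1 the highest of the 3. Tpsab1 stayed between 1 and 14 steps in both groups.

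The receptor genes other than Mrgprb2 did not pass either. Mrgprb1 read 79, 107 and 104 steps in controls and 90, 30 and 50 in knockouts at 10 days (-0.89 ± 0.47, limma adjusted p = 0.184). Ms4a2 read 25, 14 and 26 in controls and 21, 7 and 22 in knockouts (-0.46, limma adjusted p = 0.53), and without knockout replicate 2 its difference was 0.04. Fcer1a was too low to test, at 3, 4 and 10 steps in controls and 2, 7 and 3 in knockouts.

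The size of the shift at 10 days depended on the scale. On the steps 2593 genes were called higher and 2320 lower. With all libraries set to 1 common total, the median of all genes moved to -0.34, 1201 genes were called higher and 6818 lower, and 4 of the 8 genes fell: Mrgprb2, Tpsb2, Mcpt4 and Cpa3 (limma adjusted p = 0.00358, 0.0207, 0.0295 and 0.0457). On the deposited values the median of all genes was 0.26, 3418 genes were called higher and 550 lower, and Mrgprb2 alone of the 8 fell (-1.66, limma adjusted p = 0.0143). The median of the 8 on the deposited values was -0.44.

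After 4 days none of the 8 genes was called, while 11.3% of all genes were. No control was treated for 4 days, so knockout and length of treatment cannot be told apart in this comparison. An unadjusted limma p under 0.05 was found for 0 of the 8 and for 5214 of all 19450 genes. The median difference of the 8 was 0.02, beside -0.01 over all genes. Mcpt4 at 568, 530 and 585 steps, Cma1 at 346, 378 and 371 and Cpa3 at 255, 273 and 298 lay inside or close to the control ranges. Mrgprb2 read 100, 93 and 68, below all 3 controls (-0.84 ± 0.45, limma adjusted p = 0.261). Mrgprb1, at 72, 69 and 71, was also below the controls (-0.43, limma adjusted p = 0.599). No overlap between these groups was seen in 5721 of all 19450 genes. At this time 9 of 9 macrophage markers rose, with a median of 1.60, and 9 of 10 fibroblast markers rose, with a median of 1.38.

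After 12 days none of the 8 genes was called against control, with 1.28% of all genes called. An unadjusted limma p under 0.05 was found for 0 of the 8 and for 3840 of all 19450 genes. The 3 libraries stood far apart. Replicate 1 read 647 steps of Mcpt4, 406 of Cpa3, 134 of Mrgprb1, 50 of Ms4a2 and 78 of Tpsab1. Replicate 3 read 280, 172, 41, 14 and 15 of the same genes. The spread within this group was larger than its distance from the controls for each of these 5 genes.

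The comparisons with control at the 3 times share the same 3 control libraries, so the times were also compared directly. From 4 to 10 days none of the 8 genes was called, where 40.3% of all genes were. Their median was -0.72. Of the 8, 3 had an unadjusted limma p under 0.05, as had 9608 of all 19450 genes. Mcpt4 (-0.82, limma adjusted p = 0.0575) and Cpa3 (-0.77, limma adjusted p = 0.0509) missed the threshold. All 3 libraries at 10 days lay below all 3 at 4 days in both genes. No overlap between these groups was seen in 10400 of all 19450 genes. Without replicate 1 at 10 days Mcpt4, Cpa3 and Mrgprb2 fell, and with all libraries set to 1 common total Tpsb2 fell as well. From 10 to 12 days Mrgprb2 and Tpsab1 rose, 2 of 8, where 37.6% of all genes were called and 19.2% were called higher. Mrgprb2 went from 74, 22 and 38 to 180, 61 and 108 steps, with overlapping groups (1.39 ± 0.45, limma adjusted p = 0.0312). Tpsab1 went from 10, 1 and 5 to 78, 10 and 15 (2.24 ± 0.81, limma adjusted p = 0.0477). Without replicate 1 at 12 days, or without replicate 2 or 3 at 10 days, none of the 8 genes was called, and without replicate 3 at 12 days Cpa3, Cma1 and Mcpt4 were called in place of these.

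**Figure D2:**
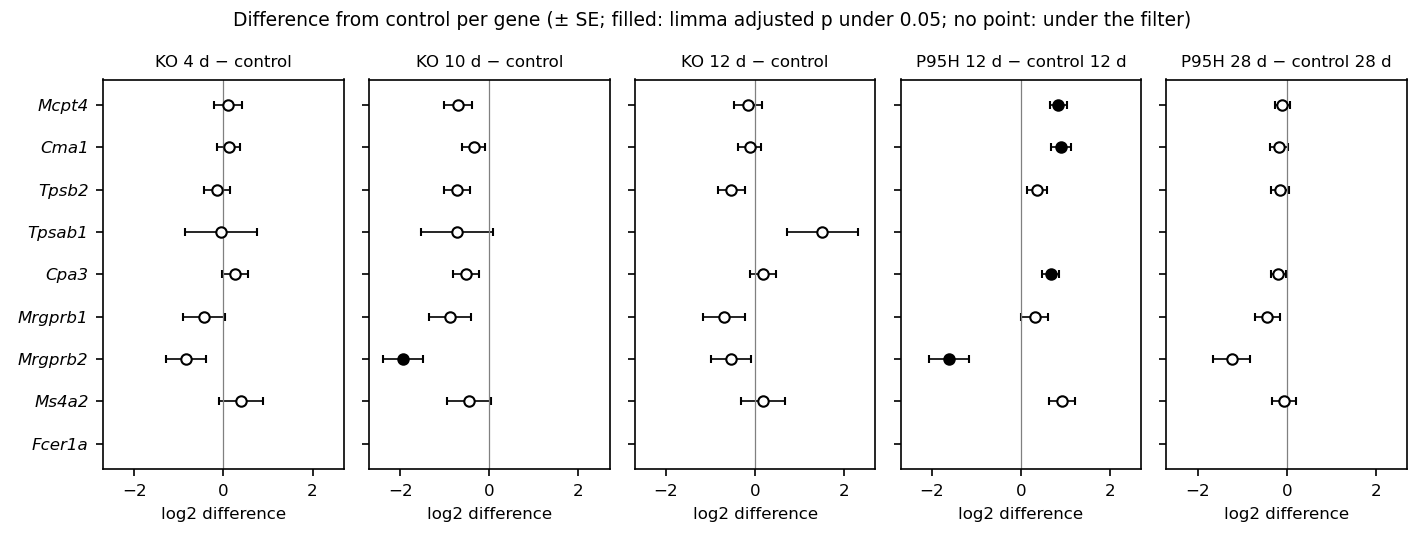
Log2 difference from control ± SE of each gene (x axes, log2 of value + 1) in the 5 whole-skin comparisons, with filled points where the limma adjusted p was under 0.05 and no point where a gene was under the mean of 10. Mrgprb2 lies left of 0 in all 5 panels and is filled at 10 days of knockout (-1.93) and at 12 days of P95H (-1.61), while Mcpt4, Cma1 and Cpa3 are filled to the right of 0 at 12 days of P95H.

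In P95H skin at 12 days Mcpt4, Cma1 and Cpa3 rose and Mrgprb2 fell. These were 4 of the 7 genes tested, where 6.93% of all genes were called, 3.96% higher and 2.97% lower. The median of the 7 was 0.67, beside 0.00 over all 18311 genes. Only 2 P95H libraries stand behind these values. Of markers of other cells, 2 of 9 macrophage (median 0.54), 2 of 4 neutrophil (median 1.99) and 1 of 10 fibroblast markers (median 0.43) rose in the same comparison. Of 8 T cell markers 1 rose and 3 fell (median -0.43), 2 of 8 skeletal muscle markers fell (median -0.59) and 0 of 9 endothelial markers were called (median 0.06). Their part in the mast cell values was not tested.

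Mcpt4 read 269, 231, 162, 198 and 169 steps in the 5 controls and 388 and 339 in the P95H mice. The P95H libraries exceeded every control, by 1.79-fold on average (log2 difference 0.84 ± 0.18, limma adjusted p = 0.0122). Cma1 read 147, 140, 100, 126 and 80 in controls and 214 and 217 in P95H skin (0.89 ± 0.23, limma adjusted p = 0.0283). Cpa3 read 200, 189, 125, 155 and 127 in controls and 259 and 240 in P95H skin (0.67 ± 0.19, limma adjusted p = 0.0471). Again both P95H libraries lay above all controls. Over all 18311 genes, 5082 showed no overlap between these groups of 2 and 5 libraries. Tpsb2, at 154, 171, 144, 158 and 135 in controls and 195 and 196 in P95H skin, did not overlap either but was not called (0.36, limma adjusted p = 0.374).

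Among receptors, Mrgprb2 read 120, 68, 137, 112 and 77 steps in controls and 53 and 19 in P95H skin. Both P95H libraries lay below every control, 3.05-fold on average (-1.61 ± 0.46, limma adjusted p = 0.0471). Mrgprb1, its paralog, read 123, 64, 65, 71 and 52 in controls and 83 and 96 in P95H skin (0.31, limma adjusted p = 0.603). Both P95H libraries were inside the control range only through control replicate 1, at 123, and lay above all other controls. Ms4a2 read 35, 26, 22, 16 and 20 in controls and 43 and 46 in P95H skin (0.92 ± 0.29, limma adjusted p = 0.0704). It did not overlap, and was not called, where 5082 of all 18311 genes did not overlap. Fcer1a, which was not tested, read 17 in P95H replicate 2 and 1 to 5 in the other 6 libraries of this day. Tpsab1, also not tested, was at 4 to 14 in controls and at 2 and 4 in P95H skin.

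These calls depended on single libraries and on the scale. Without P95H replicate 2 none of the 7 genes was called, and without replicate 1 Mrgprb2 alone was (limma adjusted p = 0.0259). On the deposited values the differences of Mcpt4, Cma1 and Cpa3 were 0.74, 0.79 and 0.57, each with a limma adjusted p of 0.9999, and Mrgprb2 alone was called (-1.72, limma adjusted p = 0.0432). Without control replicate 3 Mcpt4 alone was called, and without control replicate 4 Mcpt4 and Cma1 were. Mrgprb2 was not called without control replicate 1 (limma adjusted p = 0.0832), where Ms4a2 was (limma adjusted p = 0.0334), and Cpa3 was not called without control replicate 5 (limma adjusted p = 0.0664).

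**Figure D3:**
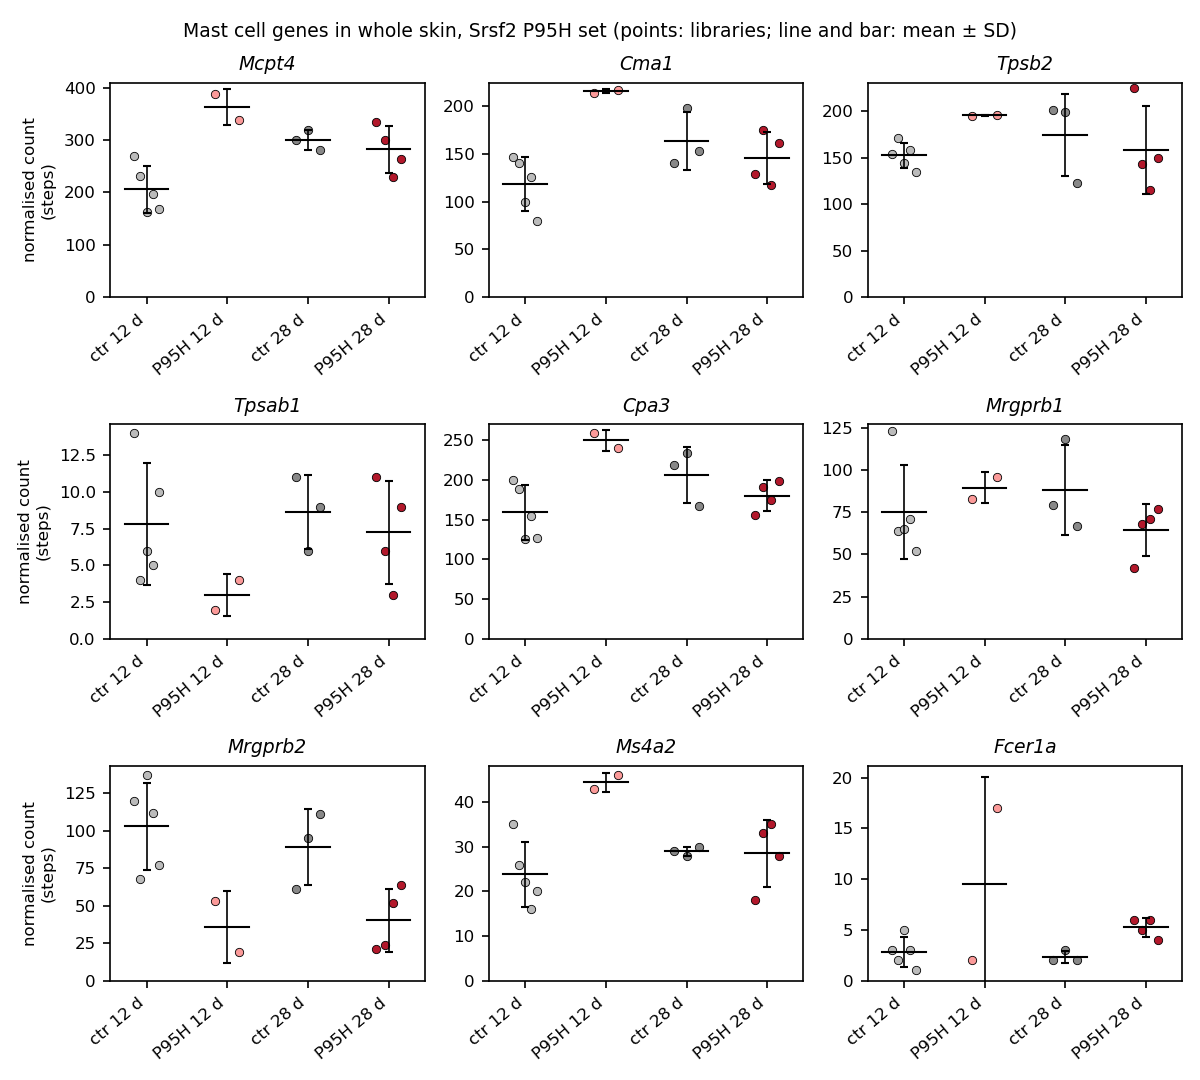
Normalised counts in steps (linear axes from 0) of the 9 mast cell genes in whole skin of the P95H set, with 1 point per library and the mean ± SD of each group (n = 5, 2, 3 and 4). At 12 days both P95H libraries of Mcpt4 (388 and 339), Cma1 (214 and 217) and Cpa3 (259 and 240) lie above the controls, and at 28 days the groups overlap in all 9 genes except Fcer1a.

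At 28 days none of the 7 genes was called in P95H skin, where 12.2% of all genes were. Of the 7, 1, Mrgprb2, had an unadjusted limma p under 0.05, as had 5333 of all 18311 genes. Mcpt4 read 300, 320 and 282 steps in controls and 334, 301, 230 and 264 in P95H skin (-0.10, limma adjusted p = 0.724). Cma1 (-0.17), Cpa3 (-0.19), Tpsb2 (-0.15) and Ms4a2 (-0.07) were as close to 0, with limma adjusted p values of 0.507 to 0.898, and on the deposited values, where the median of all genes was 0.59, all 5 of these and Mrgprb1 turned positive (0.17 to 0.52, not called). Mrgprb2 read 61, 95 and 111 in controls and 21, 24, 52 and 64 in P95H skin, where 1 P95H library passed the lowest control (-1.24 ± 0.42, limma adjusted p = 0.0659). It fell without P95H replicate 4 (-1.51, limma adjusted p = 0.0368). Fcer1a was at 2, 3 and 2 in controls and at 6, 5, 6 and 4 in P95H skin, and was not tested. The steps of P95H replicate 1 at 28 days may be rescaled reads, and its depth is uncertain.

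The difference between the P95H effects at 28 and 12 days was tested as an interaction. None of the 7 genes passed, and 0.0109% of all genes did. Mcpt4 had the smallest adjusted p (-0.94 ± 0.25, limma adjusted p = 0.369). Of the 7, 4 had an unadjusted limma p under 0.05, as had 1504 of all 18311 genes. From 12 to 28 days in control skin none of the 7 was called, with 0.00546% of all genes called. Of the 7, 3 had an unadjusted limma p under 0.05, as had 2144 of all 18311 genes. Mcpt4 was at 162 to 269 in controls at 12 days and at 282 to 320 at 28 days (0.57 ± 0.16, limma adjusted p = 0.24), and on the deposited values, where the median of all genes was -0.82, its difference was -0.26. These comparisons share the control libraries with those above.

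Mrgprb2 and Mrgprb1 were then set against each other within each library, a description chosen after the values were seen and given with no p. The ratio of Mrgprb2 to Mrgprb1 had a median of 1.42 in controls of the knockout set, 1.35 after 4 days, 0.76 after 10 days and 1.65 after 12 days. At 10 days it ran from 0.73 to 0.82, below the controls at 1.12 to 2.62. In the P95H set it had a median of 1.48 in controls and 0.42 in P95H skin at 12 days, and of 0.81 and 0.62 at 28 days. At 12 days the P95H libraries lay at 0.20 and 0.64 and the controls at 0.98 to 2.11, and at 28 days the groups overlapped. A scaling factor per library cancels in this ratio.

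**Figure D4:**
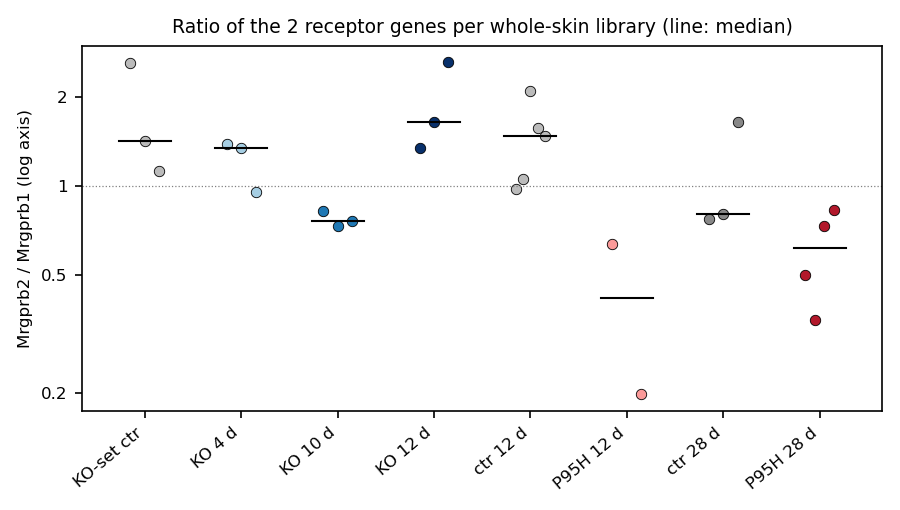
Ratio of Mrgprb2 to Mrgprb1 (log axis) in each whole-skin library, with 1 point per library and a line at the group median. The ratio lies under 1 in all libraries of knockout skin at 10 days (0.73 to 0.82) and in all 6 P95H libraries (0.20 to 0.83), and also in controls of the P95H set (0.98 at 12 days, 0.77 and 0.81 at 28 days) and in 1 library of knockout skin at 4 days (0.96).

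In sorted reporter positive cells 8 of the 9 genes were at or near 0 reads. Over the 6 libraries of the knockout set, Fcer1a, Mrgprb1, Tpsb2 and Ms4a2 had 0 reads. Mcpt4 had 1 read in all, Cpa3 2, Tpsab1 2 and Cma1 16, with 5 at most in 1 library. A count of 0 allows up to 3 reads, which is 0.0323 to 0.0653 per 1e+06 reads of these libraries, counting error only. RNA of these genes was not detectable at this depth, beyond the few reads named. In the DMBA/TPA set Tpsb2 and Ms4a2 had 1 read each and the other 6 of these 8 genes had 0.

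Mrgprb2 was the exception. It had 359, 419 and 296 reads in the sorted control libraries and 26, 48 and 181 in the knockouts. In normalised counts it was at 272, 283 and 253 in controls and at 18.5, 164 and 164 in knockouts. It showed no overlap, like 5079 of all 17744 genes tested. Its difference was -1.74 ± 0.79 (limma adjusted p = 0.311) and was not called, in a comparison with 0.0394% of all genes called. edgeR on the whole reads gave -1.26 (adjusted p = 0.363) and did not call it either. Without knockout replicate 1, the library at 18.5, the difference was -0.71 (limma adjusted p = 0.289). On simulated data at this spread limma recovered 6% of 2-fold and 46% of 4-fold changes. In the DMBA/TPA set Mrgprb2 had 3, 12 and 12 reads in controls and 7, 1 and 3 in SRSF2-P95H-het cells, and none of the 9 genes was tested there. In that comparison limma called 0% of all 14914 genes, with 2376 at an unadjusted p under 0.05, and edgeR called 1.

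Genes near Mrgprb2 on chromosome 7 were read in the same way. From Mrgprb1 to Mrgprb11-ps the annotation lists 7 genes, 6 of them on the minus strand, and no stretch of 50 bases in the transcripts of Mrgprb1, Mrgprb2, Mrgprb3, Gm18353 or Mrgprb11-ps occurs in another gene. Mrgprb3, a receptor gene of the same family (48642803 to 48643811), had 239 to 377 reads in sorted controls and 3 to 147 in sorted knockouts. The pseudogene Mrgprb11-ps (48684621 to 48685614) had 501 to 1153 and 14 to 508 reads. On the other side of Mrgprb2, Mrgprx2 (48478619 to 48499321) had at most 2 reads in any sorted library and Mrgprb1 had 0. The pseudogene Mrgprb9-ps (48590802 to 48591693), between Mrgprb2 and Gm18353 and the 1 gene of the 7 on the plus strand, had at most 1 read in any sorted library and 1 to 3 steps in whole skin. Reads in sorted cells thus stood at Mrgprb2, Mrgprb3 and Mrgprb11-ps, and at Gm18353 between them with 8 to 26 reads in controls, and were near 0 at Mrgprx2, Mrgprb1 and Mrgprb9-ps. In sorted cells Mrgprb3 and Mrgprb11-ps were tested and not called (limma adjusted p = 0.186 for Mrgprb3 and 0.219 for Mrgprb11-ps). Gm18353, Mrgprx2, Mrgprb1 and Mrgprb9-ps were under the mean of 10 there and were not tested.

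In whole skin Mrgprb3 fell in knockout skin at 10 days, from 159 to 377 steps in controls to 27 to 114 (-1.97 ± 0.52, limma adjusted p = 0.0219). It fell in P95H skin at 12 days, from 187 to 283 in controls to 26 and 106 (-2.10, limma adjusted p = 0.00672), and at 28 days, from 215 to 396 to 35 to 62 (-2.49, limma adjusted p = 0.00127). Mrgprb11-ps fell in the same 3 comparisons (-2.31, -2.84 and -2.62, limma adjusted p = 0.0347, 0.00496 and 0.0045). Gm18353 fell in knockout skin at 10 days, from 9 to 31 steps in controls to 1 to 6 (-1.95, limma adjusted p = 0.0338). In the knockout set it passed the mean of 10 only through the control libraries, where it was highest. The filter thus favoured a lower value against control, and this call is uncertain. Gm18353 also fell in P95H skin at 28 days, from 15 to 27 to 3 to 11 (-1.53, limma adjusted p = 0.0369). At 12 days of P95H it was at 16 to 32 in controls and at 3 and 12 in P95H skin, and was not called (-1.62, limma adjusted p = 0.0587). Mrgprx2, at 10 to 55 steps over the 12 libraries of the knockout set and 11 to 36 over those of the P95H set, was not called in any of the 3. The share of the Mrgprb2 signal in whole skin that comes from the cells sorted here was not measured, and its part in the fall of Mrgprb2 was not tested. Mrgprx2, Mrgprb9-ps, Gm18353 and Mrgprb11-ps were chosen by position after the values of Mrgprb2 and Mrgprb3 were seen.

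**Figure D5:**
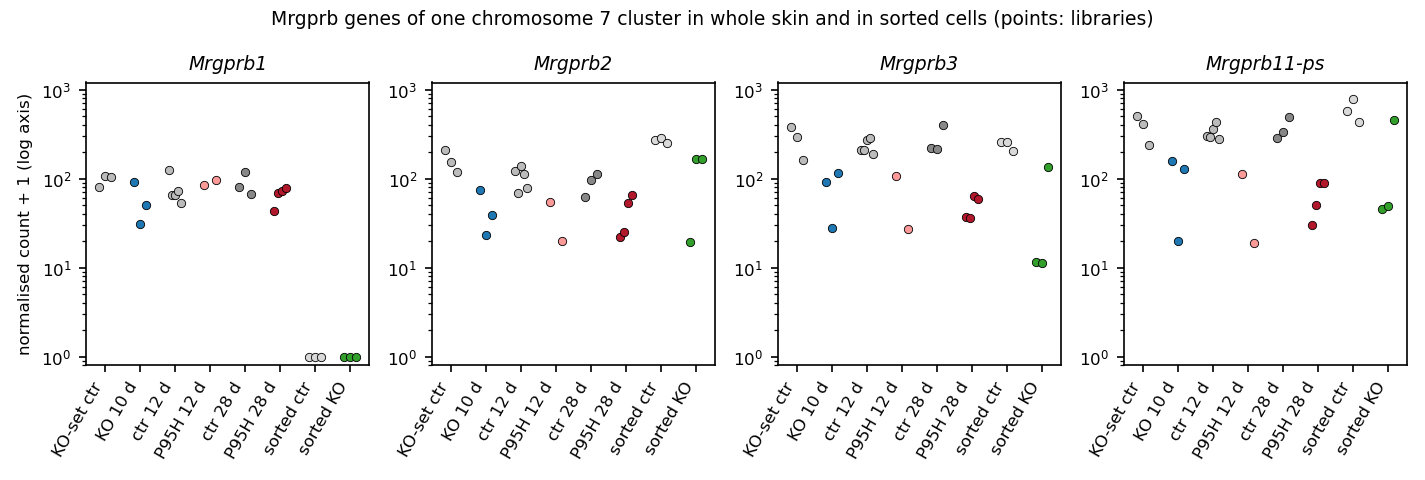
Normalised count + 1 (log axis) of Mrgprb1, Mrgprb2, Mrgprb3 and the pseudogene Mrgprb11-ps per library, in whole skin (steps) and in sorted cells of the knockout set (deposited values). Mrgprb1 sits at 0 counts in all 6 sorted libraries, while Mrgprb2 lies at 253 to 283 in sorted controls, and in P95H skin at 12 days Mrgprb3 (26 and 106) and Mrgprb11-ps (18 and 111) lie below their controls (187 to 283 and 281 to 432).

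Further mast cell genes were read from 6 lists, and the cells their transcripts came from were not separated in whole skin. Of the 12 genes of mediator synthesis and granule storage, 5 fell and none rose in knockout skin at 10 days, with a median of -0.42, where 11.9% of all genes were called lower and 13.3% higher. They were Hpgds, the prostaglandin D synthase of mast cells (-1.07, limma adjusted p = 0.0178), Ltc4s, which makes leukotriene C (-1.32, limma adjusted p = 0.00882), the amine oxidase Maob (-1.05, limma adjusted p = 0.00271), the lipoxygenase Alox5 (-0.79, limma adjusted p = 0.00802) and the cyclooxygenase Ptgs1 (-1.27, limma adjusted p = 0.00947). Of 8 signalling and secretion genes Gab2, an adaptor below the receptors, fell (-0.65, limma adjusted p = 0.0166), and of 2 further proteases 0 were called. Of the 4 transcription factors tested, Tal1 and Gata2 fell (-0.95 and -0.75, limma adjusted p = 0.00633 and 0.0213) and Mitf rose (0.56, limma adjusted p = 0.0237). Kit, the stem cell factor receptor that mast cells share with melanocytes, rose from 462, 563 and 610 steps to 1306, 1426 and 1428, while 7 of 8 melanocyte markers rose, with a median of 4.06. The ligand Kitl rose (0.65) and Il33 fell (-1.14, limma adjusted p = 0.0336 and 0.0276). Beside the mast cell genes, 8 of 9 endothelial markers fell at 10 days (median -0.81), as did 6 of 8 skeletal muscle markers (median -1.25) and 1 of 10 fibroblast markers (median -0.16). Of 9 macrophage markers 0 were called (median -0.40), and 12 of 13 hair shaft and inner root sheath markers rose (median 6.61). Their part in the lower mast cell values was not tested.

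At 4 days of knockout 5 of 12 mediator genes and 5 of 8 genes of mast cell signalling and secretion rose, among them Alox5ap (1.81), Alox5 (1.21), Btk (1.41), Lcp2 (1.51) and Syk (1.08), all of which other myeloid or blood cells express too, where 7.21% of all genes were called higher. Fcer1g, the signalling chain that the IgE receptor shares with other Fc receptors, rose by 1.62, and Cd200r3, a receptor of mast cells and basophils, by 1.80. Of the 8 mast cell genes tested none rose at this time. The summed level of the 9 macrophage markers was 38591 to 60198 steps in controls and 101880 to 188335 at 4 days. Its part in the rise of the shared genes was not tested.

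Of the 12 mediator genes 2 rose and 1 fell in P95H skin at 12 days, with a median of 0.27. Over all genes 3.96% were called higher and 2.97% lower in this comparison. Srgn, the core protein of granule proteoglycan, rose (0.85, limma adjusted p = 0.00251), as did Hdc, which makes histamine (1.58, limma adjusted p = 0.041), and Ptgs1 fell (-0.59, limma adjusted p = 0.0056). Cd200r3 (1.45, limma adjusted p = 0.0447) and Tslp, an alarmin of keratinocytes (1.51, limma adjusted p = 0.00273), rose as well. Hdc read 48 and 207 steps in the 2 P95H libraries and 23 to 42 in controls, so its mean rests mostly on replicate 2. Of the basophil markers, Mcpt8, the defining protease, was at 6 and 8 steps in P95H skin and at 1 to 2 in controls, under the mean of 10. The summed level of the 6 basophil markers was 156 and 230 steps in P95H skin and 116 to 158 in controls, and 1 of the 3 tested, Cd200r3, rose. The part of basophils in these values was not tested. At 28 days Cd200r3 and Hdc were not called. Of the genes on the further mast cell lists Mrgprb3, Maob (-0.58), Ptgs1 (-0.42) and Mitf (-0.28) fell. Over all genes 5.46% were called lower at 28 days. Mrgprb3 was listed as a mast cell gene, but had 239 to 377 reads in sorted controls of the knockout set. Of the 9 genes followed here, 1, Mrgprb2, passed the mean of 10 in that set.

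Across the 26 whole-skin libraries, with each group centred at its own mean, the 7 genes that passed in both sets were compared with one another. Cpa3 followed the mean of the other 6 most closely (Pearson r = 0.90, Spearman rho = 0.82), then Mrgprb1 (0.88 and 0.79), Cma1 (0.73 and 0.66), Ms4a2 (0.70 and 0.47) and Mcpt4 (0.69 and 0.54). Tpsb2 (0.49 and 0.32) and Mrgprb2 (0.34 and 0.18) followed it least. Mrgprb2 had an r of 0.05 with Mcpt4 and of 0.58 with Mrgprb1. Without the 2 libraries farthest from the middle, knockout replicate 1 at 12 days and replicate 2 at 10 days, Cpa3 kept an r of 0.86 and Mrgprb2 had 0.29. In the knockout set alone r ran from 0.56 for Mrgprb2 to 0.95 for Cpa3. In the P95H set alone it was 0.80 for Mrgprb1, 0.79 for Cpa3 and 0.69 for Cma1. There Ms4a2 and Mcpt4 had 0.41, Mrgprb2 0.03 and Tpsb2 -0.14. These values describe libraries that share depth and tissue composition, and no p is given.

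Outside the 9 genes, 12801 genes with a mean of at least 50 in both sets were compared with the mean pattern of the 7. Among those most like it were Twsg1 (r = 0.85, rho = 0.69), Prkd3 (0.83 and 0.71), Chrdl1 (0.82 and 0.69), Dennd5b (0.82 and 0.69), Dock11 (0.81 and 0.73), Utrn (0.81 and 0.60), Zfp995 (0.81 and 0.70), Fam69a (0.81 and 0.77) and Prex2 (0.80 and 0.68). For Twsg1 r was 0.87 in the knockout set, 0.83 in the P95H set and 0.78 without the 2 farthest libraries. Over the others named r was 0.82 to 0.94 in the knockout set and 0.49 to 0.81 in the P95H set. In the P95H set it was lowest for Dennd5b, Utrn, Prex2 and Prkd3 (0.49, 0.53, 0.56 and 0.58). Of the further mast cell genes, Hpgds had an r of 0.70, Adora3, an adenosine receptor, 0.63, Il1rl1, the receptor of IL-33, 0.57, Kit -0.13 and Hdc -0.42. In the knockout set alone these were 0.87, 0.72, 0.54, 0.03 and -0.67, and in the P95H set alone 0.30, 0.48, 0.68, -0.32 and -0.06. Of the other further genes named as lower in knockout skin at 10 days, Maob had 0.54 over both sets and Mrgprb3 0.42 (0.18 in the P95H set). Ptgs1 had 0.30, Tal1 0.26, Gata2 0.23, Gab2 0.22, Alox5 0.10, Ltc4s 0.08 and Il33 0.03. Hdc was highest, at 233 steps, in knockout replicate 2 at 10 days, the library in which Mcpt4, Tpsb2, Cpa3, Mrgprb1, Mrgprb2 and Ms4a2 were lowest of the 12.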

How the data were processed

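RNA was measured in 38 libraries from mouse back skin, per the labels: 12 and 14 of whole skin and 6 and 6 of sorted reporter positive cells. Per the labels' protocols, libraries of knockout mice and their controls used the TruSeq Stranded Total RNA Gold kit, and those of P95H mice and theirs a Ribo-Zero Plus kit. The submitters' processing notes name STAR, featureCounts and DESeq2. No source used here states their versions or roles, or which genome build was used.

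All 4 deposited files hold signal as deposited, a normalised count per gene made by the authors. In sorted cells 100% of values were whole multiples of 1 read (tolerance 0.0001), and edgeR on these reads called 3 and 1 genes. In whole skin the values were multiples of 1 step per library, undetected genes sat at 1 step (up to 40 genes lay below it), and a further factor per library had been applied. Steps were therefore analysed there, with the deposited values as an alternative. The depth of whole-skin libraries was estimated from the size of their steps.

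Linear models with a trended prior variance (limma 3.58.1) were run on log2(value + 1), with 1 model per file, for genes with a mean of at least 10, with Benjamini-Hochberg adjustment over all genes and a threshold of 0.05. Precision is limited by the variation among 2 to 5 mice in a group as well as by counting error. On simulated data limma recovered 45% of 2-fold and 89% of 4-fold changes for knockout skin at 10 days and 75% and 96% for P95H skin at 12 days. The simulations changed a smaller share of genes than was called in these comparisons, which makes the adjustment stricter. Recovery in the data may thus differ. Alternatives were other scales, a pseudocount of 5, no filter, only the groups compared, a replicate block, edgeR 4.0.16 (sorted cells) and leaving out each library. Members and lists were chosen with earlier results of these data known. Named are all 9 genes, Srsf2, up to 4 called genes of each further mast cell list, up to 2 per list of other cells and the 10 genes most alike in pattern, of which 1 is not reported here. Gm18353, Mrgprb9-ps, Mrgprb11-ps and Mrgprx2, and further genes given with values, were named after their values were seen, and a permutation test of the ratio of Mrgprb2 to Mrgprb1 was run but is not reported, since the ratio was chosen that way. The software was R 4.3.3 with data.table (version 1.17.8) for tables, and python 3.11.15 with numpy 2.4.6 for arrays, pandas 2.3.3 for joins and matplotlib 3.10.9 for plots. Of the 49585 identifiers 49326 matched GENCODE M21 without their version and 43749 with it. Columns of no sample numbered 0.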

Additional observations from a re-analysis of the deposited data

Results flagged for a closer look

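In controls of the P95H set at 12 days, Mrgprb1 read 123 steps in replicate 1 and 52 to 71 in the other 4, so that this library lay far from its group. Of 18 combinations of a gene and a group of 4 or 5 libraries, 9 genes in 2 groups, 1 was set apart in this way, and chance alone sets apart about 1 in 20. Mrgprb2 differed between the knockout times, with a log2 difference of 1.39 from 10 to 12 days (limma adjusted p = 0.0312). Tpsab1 differed between the same times, by 2.24 (limma adjusted p = 0.0477), with 78 steps in 1 of the 3 libraries at 12 days and 10 and 15 in the others. It passed the mean of 10 only through these libraries at 12 days.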

How the results depend on the processing

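Beside leaving out libraries, 360 of 406 values kept their direction and their side of the threshold, 12 gained a call, 17 lost one and 17 changed sign; with single libraries left out these were 447, 9, 23 and 19 of 498. For P95H skin at 12 days the 4 genes called became 1 on the deposited values, 2 with all libraries at 1 common total, 2 with no filter, 1 with only the groups compared and 1 with a replicate block, and 0 to 4 with 1 library left out. For 10 days of knockout against control the count of 1 became 4 at 1 common total and 0 to 1 with 1 library left out. From 4 to 10 days 0 became 4 at 1 common total, 2 with only the groups compared, 1 with a replicate block and 0 to 3 with 1 library left out. From 10 to 12 days 2 became 3 at 1 common total, 1 with a pseudocount of 5, 1 with no filter, 0 with only the groups compared and 0 to 3 with 1 library left out. For P95H at 28 days 0 became 1 with a replicate block and 0 to 1 with 1 library left out, Mrgprb2 in both.

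Signs changed on the deposited values for P95H at 28 days (Mcpt4 0.51, Cma1 0.44, Tpsb2 0.46, Cpa3 0.43, Mrgprb1 0.17, Ms4a2 0.52), for control skin from 12 to 28 days (Mcpt4 -0.26, Cma1 -0.34, Tpsb2 -0.66, Cpa3 -0.44, Mrgprb1 -0.57, Ms4a2 -0.48), for knockout from 10 to 12 days (Mrgprb1 -0.0046, Tpsb2 -0.01) and for the interaction (Tpsb2 0.20). The median of all genes moved to 0.59, -0.82, -0.16 and 0.71 in these comparisons. With a replicate block Mcpt4 at 28 days was 0.0074 and the interaction of Mrgprb2 -0.087. Same-numbered libraries correlated at -0.47 to 0.85 (median -0.016, knockout set) and -0.19 to 0.38 (median -0.010, P95H set). Differently numbered ones correlated at -0.68 to 0.61 (median -0.0020) and -0.48 to 0.35 (median -0.0042). Pairing of mice by number was thus not seen, though these values cannot exclude it.

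Leaving out 1 library changed the sign of these differences, none of them called: for knockout at 10 days against control Ms4a2 -0.73 to 0.037, for knockout from 4 to 10 days Tpsab1 -1.22 to 0.010, for knockout from 10 to 12 days Mrgprb1 -0.39 to 0.59 and Tpsb2 -0.040 to 0.50, for knockout at 12 days against control Cpa3 -0.14 to 0.47, Ms4a2 -0.34 to 0.54, Cma1 -0.34 to 0.21, Mcpt4 -0.40 to 0.20, for knockout at 4 days against control Tpsab1 -0.51 to 0.35, Cma1 -0.015 to 0.22, Mcpt4 -0.11 to 0.25, for control skin from 12 to 28 days Mrgprb2 -0.38 to 0.048, for the interaction Mrgprb2 -0.34 to 1.09, for P95H at 28 days Ms4a2 -0.18 to 0.13.

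The split of called genes also moved with the scale. Higher and lower calls on steps, on the deposited values and at 1 common total were 1403 and 802, 399 and 344, and 1057 and 1030 for knockout at 4 days. They were 3668 and 4166, 5654 and 1472, and 2241 and 6721 from 4 to 10 days, and 3738 and 3569, 1433 and 3638, and 7709 and 1827 from 10 to 12 days. On steps and deposited values they were 160 and 89, and 92 and 18, for knockout at 12 days, 726 and 543, and 94 and 106, for P95H at 12 days, 1227 and 999, and 614 and 14, for P95H at 28 days, 2 and 0, and 70 and 1, for the interaction, and 1 and 0, and 2 and 452, in control skin from 12 to 28 days. The causes were not tested. On simulated data 45% to 83% of 2-fold changes were recovered in whole skin and 6% in the sorted knockout set.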
